A study of Bos taurus with 10 samples.

Results

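Interferon tau is the protein by which the ruminant conceptus signals its presence to the mother. It is a type I interferon made by the trophectoderm, the outer epithelium of the blastocyst, and in cattle it comes from a family of closely related genes. Type I interferons bind the receptor pair *IFNAR1* and *IFNAR2*. The kinases *JAK1* and *TYK2* then phosphorylate STAT proteins, among them *STAT2*, which with *IRF9* turn on interferon-stimulated genes such as *MX1*, *MX2*, *ISG15* and *IFI6*. The genes described here are those of this signal: *IFNT2*, *IFNAR1*, *IFNAR2*, *STAT2*, *MX1*, *MX2*, *ISG15* and *IFI6*, with any further row whose symbol is IFNT followed by a number or *IFN-TAU*. The symbol pattern added 2 rows, *IFNT3* and *IFN-TAU*. *IFNAR2* has no row in the table and is not analysed here, so the set holds 9 of the 20112 genes of the table.

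The values come from RNA-seq of single bovine early blastocysts, 5 WT and 5 *SOX2* KO, labelled 7.0 days after fertilization. The methods of the study give a slightly later day of collection and state that embryos were genotyped from part of their cDNA. WT embryos were injected as zygotes with mRNA of the cytosine base editor BE3 and no sgRNA. *SOX2* KO embryos received BE3 mRNA together with sgRNAs whose editing writes early stop codons into *SOX2*, the gene of a transcription factor. All embryos thus carried BE3 mRNA, and loss of *SOX2* and the presence of sgRNA cannot be told apart. By immunostaining, the study found SOX2 protein in trophectoderm as well as inner cell mass of early blastocysts. In late blastocysts it was confined to the inner cell mass. The comparison asks how the transcriptome of the blastocyst differs when *SOX2* is disrupted. Each library is 1 whole embryo, so fewer cells of a type and less RNA per cell cannot be told apart. Embryos are named nc1 to nc5 for WT and ko1 to ko5 for *SOX2* KO. No source states the culture or the parents of each embryo, and p-values measure the spread between these embryos.

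Recovered reads on genes lay between 2223670 and 5134855 across WT and between 2578284 and 4337342 across *SOX2* KO embryos, and the 18S ribosomal RNA gene *RN18S1* held 26.4% to 37.0% and 32.5% to 45.0% of them. *SOX2* mRNA overlapped between the groups (78.2 ± 14.1 against 56.6 ± 23.2 normalized read counts, SD, n = 5 each), and a stop codon need not remove the mRNA. *XIST*, the RNA of the inactive X chromosome, was low in nc2 (11.9) and ko4 (33.7) and at 429 or more in the other embryos. The trophectoderm keratins *KRT8* and *KRT18* had at least 11421 and 6063 reads in every embryo. Normalized read counts are reads divided by a size factor of the embryo. A gene at 3 reads or fewer in an embryo was taken as at the floor of detection, and this floor covers counting error only.

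In the interferon set, no gene passed the test between WT and *SOX2* KO embryos. *IFN-TAU* was at the floor in all 10 embryos, *MX2* in all 5 WT and *IFI6* in all 5 *SOX2* KO embryos, and the transcripts of *IFNT3* and *MX1* varied widely from embryo to embryo. A gene was called when its limma p, adjusted by Benjamini-Hochberg over all 20056 genes tested, was no more than 0.05 and its fold change reached 2 upward or 0.5 downward. Of the 9 genes, 0 were called by limma, where 10.1% of all genes tested were called. DESeq2 and the quasi-likelihood test of edgeR on the recovered reads also called 0 of the 9, and 10.3% and 9.9% of all genes. At an unadjusted p under 0.05, limma listed 1 of the 9, *MX2*, where 32.4% of all genes passed. The groups overlapped for all 9 genes, whereas they did not for 9.17% of genes tested. The median log2 fold change of the 9 genes was 0.39, beside 0.25 over all genes tested. Over all genes with a mean of at least 10, which 4 of the 9 reached, the median was -0.04. All fold changes are on the scale of log2(normalized read count + 1), which understates changes of genes with few reads.

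**Figure D1:**
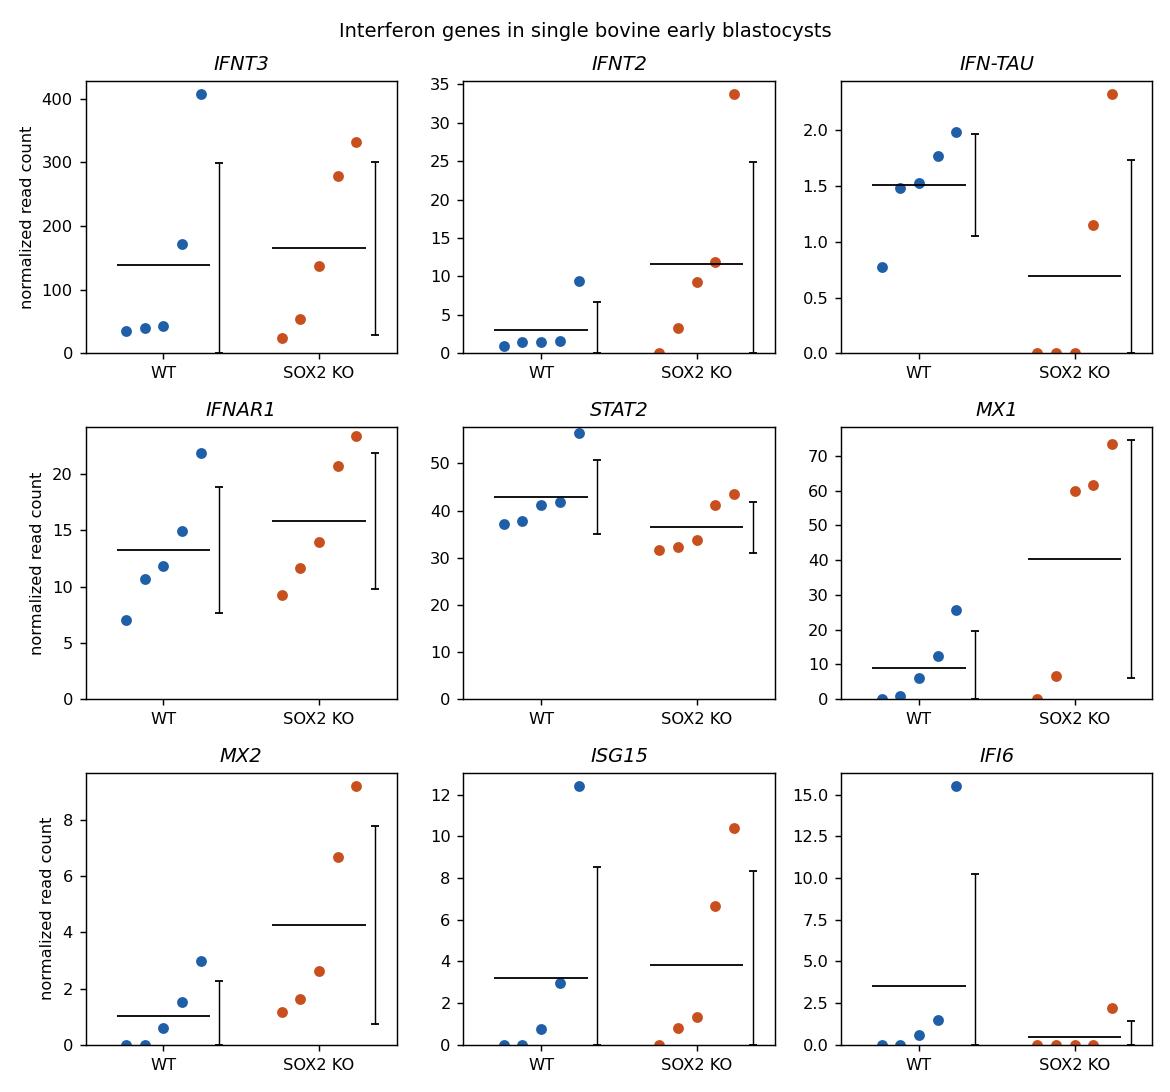
Normalized read count (vertical axis, linear, from 0) of each of the 9 genes in the 5 WT (blue) and 5 *SOX2* KO (orange) blastocysts, 1 point per embryo in ascending order; horizontal lines are means and bars are the SD, with the lower end cut at 0. The groups overlap in every panel, and *IFNT3* lies between 34.8 and 407 across WT and between 23.8 and 331 across *SOX2* KO embryos.

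*IFNT3* carried most of the interferon tau signal and was detected in all 10 embryos. In WT embryos nc1 to nc5 it had 42.7, 40.04, 34.8, 171 and 407 normalized read counts. In *SOX2* KO embryos ko1 to ko5 the values were 137, 54.1, 331, 23.8 and 278. Embryos with high and with low *IFNT3* were thus found in both groups, and the lowest and the highest embryo differed 11.7-fold within WT and 13.9-fold within *SOX2* KO. The fitted log2 fold change of 0.39 (SE 0.64, 95% interval -0.94 to 1.72, limma adjusted p = 0.703) leaves room for changes in either direction. These values rest on 1747 reads in all, from 27 in nc2 to 690 in nc5.

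*IFNT2*, a neighbouring gene of the same family, was near the floor in most WT embryos. Its normalized read counts were 1.53, 1.48, 0.994, 1.55 and 9.44 in WT and 3.34, 11.9, 33.7, 0 and 9.22 in *SOX2* KO embryos. In reads this was 2, 1, 1, 2 and 16 against 3, 9, 29, 0 and 8. The single high WT embryo, nc5, was also the one with the most *IFNT3*, and ko4 was the lowest embryo for both genes. The log2 fold change was 1.18 (SE 0.76, 95% interval -0.40 to 2.76, limma adjusted p = 0.287). Without ko4 it was 1.89 and passed the thresholds (adjusted p = 0.0415), in a comparison that then called 16.6% of all genes, 15.2% higher.

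*IFN-TAU* had at most 3 reads in any embryo, 2, 1, 2, 1 and 3 in WT and 0, 0, 2, 0 and 1 in *SOX2* KO, so no fold change is given. After quantile normalization, which called 5.36% of all genes and 2.23% lower, limma also called it lower. Another row of the family, *IFN-tau-c1*, falls outside the symbol pattern and had 2, 1, 4, 0 and 20 reads in WT and 2, 3, 4, 0 and 6 in *SOX2* KO embryos. Its highest embryo was again nc5. Over these 4 rows and all embryos, *IFNT3* took 93.3% of the 1872 reads, and between 77.4% and 100% in single embryos. Summed over the 4 rows, normalized read counts lay between 41.8 and 430 across WT and between 23.8 and 372 across *SOX2* KO embryos. In the RefSeq gene order of assembly ARS-UCD2.0, *IFNT3*, *IFNT2* and *IFN-tau-c1* lie side by side with 1 other gene between each pair. Members of this family are nearly alike in sequence, and how reads that map to several genes were counted is not given in the sources used here. The division of reads among the 4 rows is therefore uncertain, more so than their sum.

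The ligand list held these 4 rows and *IFNK*, interferon kappa. *IFNK* had 8, 0, 1, 0 and 5 reads in WT and 10, 2, 8, 9 and 5 reads in *SOX2* KO embryos. The log2 fold change was 1.77 (SE 0.62, limma adjusted p = 0.0588), past an unadjusted p of 0.05 but short of the adjusted threshold. Of the 5 ligands, 0 were called by limma, DESeq2 or edgeR, where 10.1%, 10.3% and 9.9% of all genes were. *IFNK* was the 1 with an unadjusted limma p under 0.05, which 32.4% of all genes had.

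*IFNAR1*, the receptor subunit with a row, was found in every embryo at a low level. It had 10.7, 11.9, 14.9, 6.99 and 21.8 normalized read counts in WT and 23.4, 9.24, 11.6, 14.0 and 20.8 in *SOX2* KO embryos, from 7 to 37 reads each. The ranges nearly coincided, and the log2 fold change was 0.25 (SE 0.40, 95% interval -0.59 to 1.08, limma adjusted p = 0.701). Of the 5 receptor genes tested, 0 were called by limma, DESeq2 or edgeR, where 10.1%, 10.3% and 9.9% of all genes were. An unadjusted limma p under 0.05 was found for 3 of the 5, beside 32.4% of all genes. The groups did not overlap for 9.17% of all genes, and among the 5 receptor genes for *IL10RB* only. *IL10RB*, a subunit of the receptor for type III interferons, lay between 43.0 and 95.6 across WT and between 96.5 and 133 across *SOX2* KO embryos (log2 fold change 0.54, limma adjusted p = 0.0973). It was named after its values were seen. *IFNGR1*, which binds interferon gamma, was the other receptor gene among the highest by mean, with a median of 38.9 in WT and 47.9 in *SOX2* KO embryos.

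*STAT2* was the steadiest gene of the set. WT embryos had 56.5, 37.1, 41.8, 41.2 and 37.8 normalized read counts and *SOX2* KO embryos 43.4, 31.7, 33.7, 41.1 and 32.3. The log2 fold change was -0.22 (SE 0.24, 95% interval -0.72 to 0.27, limma adjusted p = 0.538). Of 7 kinases and transcription factors of the signal examined, 0 were called by limma, DESeq2 or edgeR, where 10.1%, 10.3% and 9.9% of all genes were. An unadjusted limma p under 0.05 was found for 0 of the 7, beside 32.4% of all genes. The kinase *JAK1* had 129 ± 19.6 in WT against 161 ± 38.6 (SD, n = 5 each, limma adjusted p = 0.311), and *TYK2* 39.2 ± 17.7 against 52.6 ± 16.2 (limma adjusted p = 0.290).

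*MX1*, a dynamin-like GTPase with antiviral activity, varied widely within both groups. WT embryos had 0.763, 0, 5.97, 25.6 and 12.4 normalized read counts, and *SOX2* KO embryos 73.5, 6.60, 61.6, 0 and 60.0. The 3 highest embryos were ko1, ko3 and ko5, all above every WT embryo, while ko4 had 0 reads and ko2 5 reads, within the WT range. The log2 fold change of 1.79 had a wide error (SE 1.01, 95% interval -0.32 to 3.90, limma adjusted p = 0.226). Without ko4 it was 2.84 and passed the thresholds (adjusted p = 0.0199). With the share of *RN18S1* as a covariate it was 0.15 (adjusted p = 0.970). That share had a Pearson r of 0.59 with *MX1* over the 10 embryos, and its part in the result was not tested.

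*MX2*, the gene next to *MX1* in the RefSeq order, was near the floor. It had 2, 0, 3, 0 and 1 reads in WT and 6, 2, 1, 2 and 8 reads in *SOX2* KO embryos. Only ko1 and ko5 rose above the floor, and both were also high in *MX1*. The log2 fold change was 1.33 (SE 0.60, 95% interval 0.09 to 2.58, unadjusted p = 0.0365 and adjusted p = 0.129 in limma). Some reads of *MX1* and *MX2* could be shared, as the 2 genes are related in sequence.

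*ISG15*, a ubiquitin-like protein attached to other proteins after an interferon signal, had 1, 0, 0, 16 and 5 reads in WT and 6, 1, 0, 1 and 9 in *SOX2* KO embryos. The groups overlapped almost entirely (log2 fold change 0.40, SE 0.77, 95% interval -1.20 to 1.99, limma adjusted p = 0.753). *IFI6*, a small membrane protein induced by interferon, had 0, 1, 0, 20 and 1 reads in WT and 2, 0, 0, 0 and 0 in *SOX2* KO embryos. Nearly all of its WT reads thus came from nc4. The ratio of summed reads per size factor, *SOX2* KO over WT, was 0.118 with a counting interval of 0.0135 to 0.480, and that interval takes no account of the spread between embryos. In limma, which does, the log2 fold change was -0.87 (SE 0.69, adjusted p = 0.39).

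**Figure D2:**
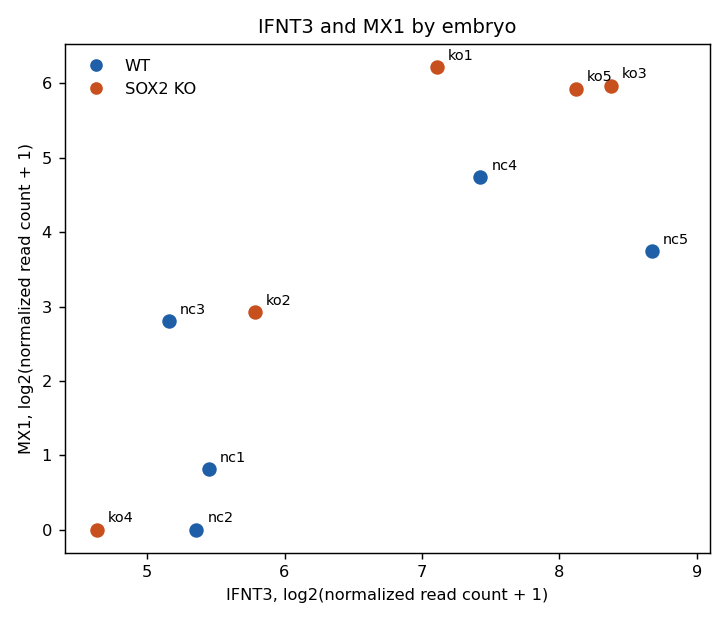
*IFNT3* (horizontal axis) against *MX1* (vertical axis), both as log2(normalized read count + 1), 1 labelled point per embryo, WT in blue and *SOX2* KO in orange. Embryos low in both (ko4, nc1, nc2) and high in both (ko1, ko3, ko5, nc4) are found, and nc5 has the highest *IFNT3* with an intermediate *MX1*.

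Across embryos, the values of *MX1* and *IFNT3* were compared as measures of response and ligand, and their correlation fell short of the adjusted threshold. Over the 10 embryos Pearson's r between the log2 values of *IFNT3* and *MX1* was 0.82 (permutation p = 0.00695) and Spearman's rho was 0.76 (permutation p = 0.0141). Relations of *IFNT3* with all 8 other genes were computed, and after Benjamini-Hochberg adjustment over them these 2 values were 0.0556 and 0.0565, short of 0.05. Without the embryos farthest from the median of *IFNT3*, nc5 and ko3, r was 0.89, and after subtracting the mean of each group it was 0.84. No embryo lay between 54.1 and 137 normalized read counts of *IFNT3*, and with only 5 embryos on either side of this gap no coefficient is given within a side. Above the gap, nc5 had the most *IFNT3* (407) and the least *MX1* (12.4), and ko1 the least *IFNT3* (137) and the most *MX1* (73.5), so the order there did not follow the relation over all embryos. *IFNT2* followed *IFNT3* with an r of 0.74 (permutation p = 0.0170, adjusted 0.0679) and a rho of 0.84 (permutation p = 0.00376, adjusted 0.0301), and r was 0.59 without nc5 and ko3.

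*ISG15* had an r of 0.52 with *IFNT3* (permutation p = 0.120, rho 0.45 with permutation p = 0.197), and 0.93 without nc5 and ko3. *STAT2* had a negative r of -0.39 (permutation p = 0.265, rho -0.33 with permutation p = 0.349). The other 4 genes had r between 0.08 and 0.32 and adjusted permutation p-values of at least 0.481. *IFNT3* had an r of 0.27 with the reads on genes, 0.23 with the share of *RN18S1*, 0.47 with *XIST* and 0.71 with the trophectoderm keratin *KRT19*. After centring by group the value of *IFNT3* with *KRT19* was 0.91. *MX1* had an r of 0.02, 0.59, 0.66 and 0.73 with the same measures in that order, before centring. *KRT19* itself rose in *SOX2* KO embryos, from 595 ± 319 to 1487 ± 584 (SD, n = 5 each, log2 fold change 1.40, limma adjusted p = 0.00793). The part of depth, *RN18S1*, *XIST* or *KRT19* in the relation of *IFNT3* and *MX1* was not tested.

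The genes whose pattern was most like that of *IFNT2*, by Pearson's r of log2 values centred by group over the 10 embryos, were *HSPA5* (0.927), *RYK* (0.922), *CALR* (0.921), *TOR1AIP2* (0.906) and *HELB* (0.906), among 6982 genes averaging 50 or more. *HSPA5* and *CALR* encode chaperones of the endoplasmic reticulum, *RYK* a Wnt receptor and *HELB* a DNA helicase. For *IFNT3*, taken in the same way after the values were seen, they were *IGFBP3* (0.949), *SLC12A2* (0.946), *DUSP6* (0.922), *ATOX1* (0.916) and *CETN2* (0.910), and *KRT19* came sixth of 6981 with 0.907. *IGFBP3* binds insulin-like growth factors, *SLC12A2* transports sodium, potassium and chloride, and *DUSP6* dephosphorylates the kinase ERK. These are the highest of all those coefficients from the same 10 libraries and are given as a description.

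The wider interferon pathway was followed through lists of genes, 137 of them examined. Of these, 11 were called higher and 2 lower in *SOX2* KO embryos, or 8.03% and 1.46%, beside 8.93% and 1.16% of all genes tested. The median log2 fold change of the 137 genes was 0.39, beside 0.25 over all genes tested. Over all genes with a mean of at least 10, which 87 of the 137 reached, the median was -0.04. DESeq2 called 7 higher and 2 lower, beside 9.13% and 1.18% of all genes, and edgeR 6 and 3, beside 8.41% and 1.49%. With the share of *RN18S1* as a covariate 3 were called, *TAP1* higher and *HERC5* and *IRF1* lower. That fit called 137 genes higher and 83 lower over all genes. Leaving out an embryo gave between 7 calls (without nc2) and 23 calls (without ko4), with 8 each without ko3 and without ko5. Over all genes, 1051 were called higher and 179 lower without nc2, and 3050 and 266 without ko4. In the limma fit to all embryos, the shares of 8.03% and 1.46% lay near those of all genes. In DESeq2 and edgeR, the share called higher (7 and 6 of 137) was smaller than that of all genes (9.13% and 8.41%). The counts called lower, 2 and 3 of 137, were too small to set apart from the shares of all genes (1.18% and 1.49%).

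**Figure D3:**
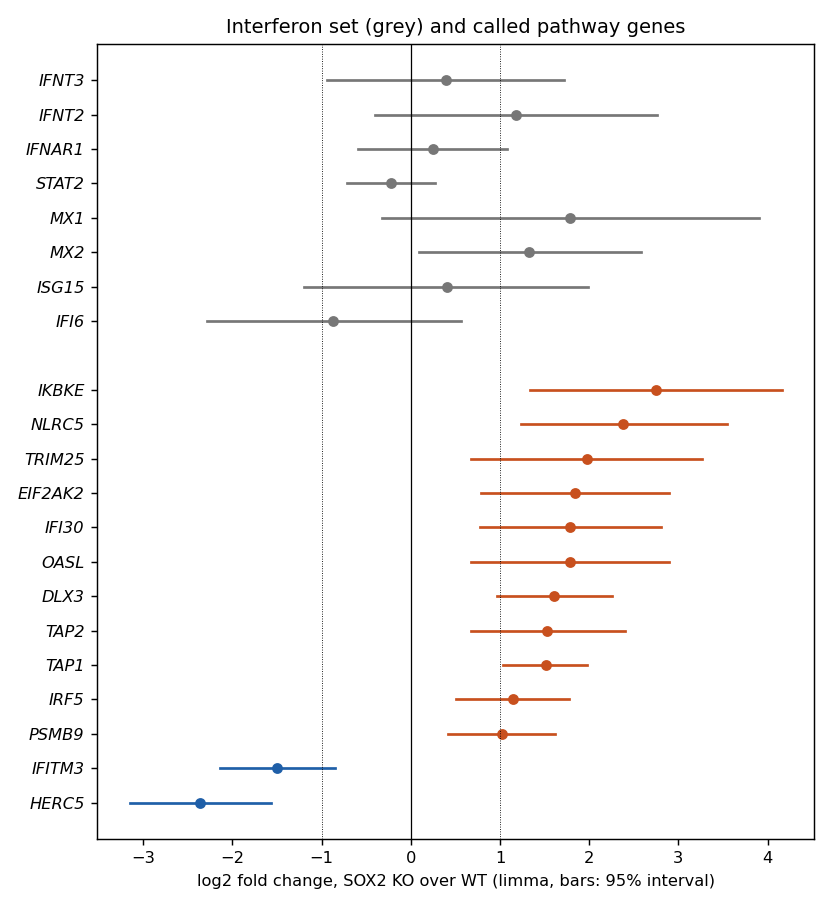
Log2 fold change of *SOX2* KO over WT with its 95% interval from limma (horizontal axis; dotted lines at -1 and 1) for the interferon set (grey) and for the pathway genes called higher (orange) or lower (blue). *IFN-TAU* is left out because it had at most 3 reads in any embryo; the grey intervals all span 0 except that of *MX2*, from 0.09 to 2.58.

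Among 68 interferon-stimulated genes with a row, out of 82 listed, 8 were called higher and 2 lower by limma. These are 11.8% and 2.94%, beside 8.93% and 1.16% of all genes tested. DESeq2 called 5 higher and 2 lower, beside 9.13% and 1.18% of all genes, and edgeR 4 and 3, beside 8.41% and 1.49%. The genes called higher by limma were *TAP1*, *TAP2*, *NLRC5*, *PSMB9*, *EIF2AK2*, *IFI30*, *TRIM25* and *OASL*. *TAP1*, which with *TAP2* moves peptides to MHC class I molecules, had 62.6, 28.2, 71.6, 41.2 and 53.7 in WT and 139, 166, 131, 133 and 137 in *SOX2* KO embryos. Every *SOX2* KO embryo lay above every WT embryo (log2 fold change 1.51, SE 0.23, limma adjusted p = 0.000378), and the call was kept whichever embryo was left out. *TAP2* also did not overlap, with 8.23 ± 4.89 against 23.3 ± 5.002 (SD, n = 5 each, log2 fold change 1.53, limma adjusted p = 0.0212). *NLRC5*, a transactivator of MHC class I genes, rose from 4.31 ± 4.09 to 24.6 ± 15.7 (log2 fold change 2.38, limma adjusted p = 0.00968), and *PSMB9*, a subunit of the immunoproteasome, from 23.1 ± 7.79 to 46.9 ± 10.6 (log2 fold change 1.02, limma adjusted p = 0.0256). With an embryo left out, the call of *NLRC5* was kept in 10 of 10 runs, that of *TAP2* in 7 and that of *PSMB9* in 5, and *PSMB9* missed the fold threshold in edgeR (log2 fold change 0.92). *B2M*, the light chain of MHC class I, had 389 ± 133 in WT and 334 ± 43.4 in *SOX2* KO embryos (limma adjusted p = 0.546).

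*EIF2AK2*, the kinase PKR that responds to double-stranded RNA, had 2.29, 2.97, 6.96, 11.7 and 15.9 in WT and 21.2, 27.7, 37.2, 9.86 and 48.4 in *SOX2* KO embryos. Only ko4 lay within the WT range (log2 fold change 1.84, SE 0.51, limma adjusted p = 0.0224). *IFI30*, a thiol reductase of the lysosome, had 37.6 ± 33.4 against 97.9 ± 38.8 (SD, n = 5 each), with an adjusted p of 0.0222 in limma, 0.139 in DESeq2 and 0.0625 in edgeR. The calls of *EIF2AK2* and *IFI30* were kept in 6 of the 10 runs that left out an embryo. *TRIM25*, a ubiquitin ligase of RNA sensing, had 0, 0, 3, 5 and 0 reads in WT and 6, 13, 5, 4 and 3 in *SOX2* KO embryos. *OASL* had 2 reads over the WT embryos and 17 over the *SOX2* KO embryos, a ratio per size factor of 11.03 with a counting interval of 2.62 to 98.5. *TRIM25* and *OASL* were called by limma (adjusted p = 0.0411 and 0.0335) but not by DESeq2 or edgeR, and in 3 of 10 runs that left out an embryo.

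*HERC5*, the ligase that attaches *ISG15*, had the lowest log2 fold change among the called genes of the list. It had 35.9, 47.5, 49.7, 51.3 and 89.7 in WT and 11.1, 10.6, 3.49, 8.21 and 19.6 in *SOX2* KO embryos. The groups were fully separate (log2 fold change -2.36, SE 0.38, limma adjusted p = 0.000671). *IFITM3*, a membrane protein that hinders virus entry, fell from 115 ± 38.0 to 42.9 ± 22.4 (SD, n = 5 each, log2 fold change -1.50, limma adjusted p = 0.00495). Genes of the IFITM family are alike in sequence and may share reads. Thus the called interferon-stimulated genes went in both directions, and *ISG15*, *MX1*, *MX2* and *IFI6* were not among them. *MOV10*, the most abundant of the 68 by mean, had 540 ± 93.5 and 473 ± 81.1 (limma adjusted p = 0.437).

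**Figure D4:**
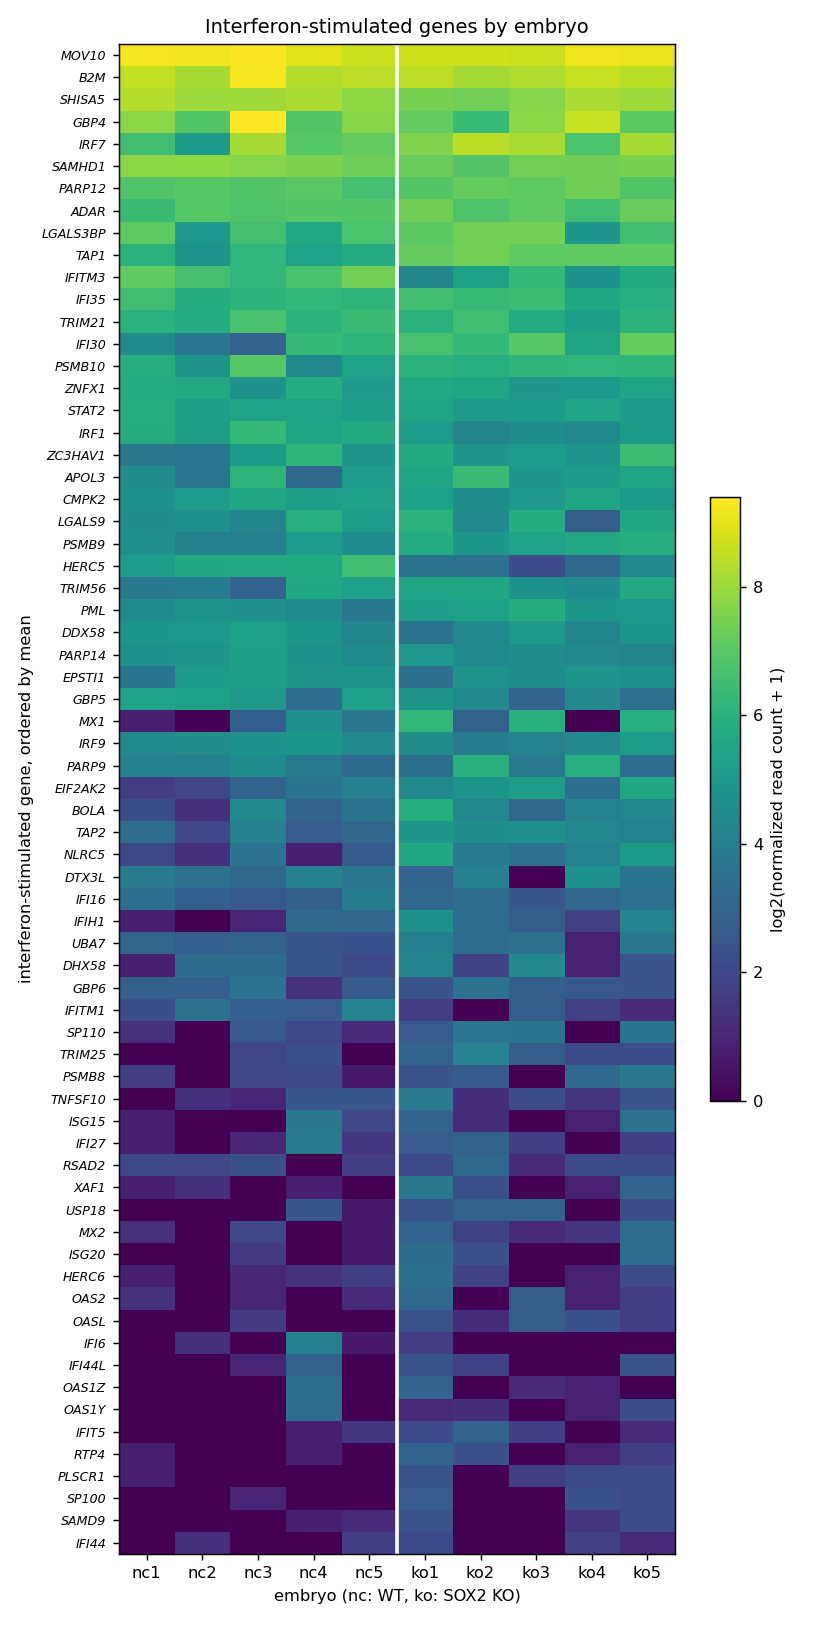
Log2(normalized read count + 1) of the 68 interferon-stimulated genes with a row, ordered by mean (rows), in the 10 embryos (columns, WT left and *SOX2* KO right of the white line); dark cells are low and yellow cells high. Of the 68, 30 have a mean under 10, and among these nc4 holds the highest WT value for 11.

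Of 10 interferon regulatory factors, 1 was called by limma, where 10.1% of all genes were. *IRF5* rose from 77.1 ± 52.5 to 148 ± 25.6 (SD, n = 5 each, log2 fold change 1.14, limma adjusted p = 0.0192), with an overlap through nc3, and was called in 7 of the 10 runs that left out an embryo and not by DESeq2 or edgeR. *IRF7*, a main inducer of type I interferon genes, had 133 ± 91.6 and 245 ± 95.4 (log2 fold change 1.06, limma adjusted p = 0.0710), and *IRF3* 144 ± 47.9 and 150 ± 36.9 (limma adjusted p = 0.848). *IRF1* did not overlap, between 37.1 and 74.6 across WT and between 18.5 and 34.5 across *SOX2* KO embryos. The log2 fold change of -0.97 (limma adjusted p = 0.0248) missed the fold threshold (13.6% of all genes passed on the adjusted p alone), which edgeR's value of -1.08 passed. Of 15 sensors of foreign nucleic acid and their adaptors, *IKBKE* alone was called, higher, where 8.93% of all genes were called higher. Of the 15, 7 had an unadjusted limma p under 0.05, where 32.4% of all genes passed. The median log2 fold change of the 15 was 1.12, beside 0.25 over all genes tested. Over all genes with a mean of at least 10 the median was -0.04, and the 15 were not matched to other genes by level. *IKBKE*, a kinase which phosphorylates *IRF3* and *IRF7*, had 5, 0, 4, 0 and 0 reads in WT and 23, 3, 14, 5 and 24 in *SOX2* KO embryos (log2 fold change 2.75, SE 0.68, limma adjusted p = 0.0132). The abundant adaptors *MAVS* and *MYD88* differed by 0.51 and 0.44 on the log2 scale (limma adjusted p of 0.0569 and 0.150). Of 13 inhibitors of the signal 0 were called by limma, DESeq2 or edgeR, where 10.1%, 10.3% and 9.9% of all genes were. An unadjusted limma p under 0.05 was found for 4 of the 13, near the 32.4% of all genes. The most abundant, *PTPN11* and *PIAS2*, differed by -0.16 and -0.30 on the log2 scale (limma adjusted p of 0.462 and 0.182), and *PIAS1*, at -0.62 (adjusted p = 0.0193), passed the test on p alone.

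Of 22 genes known as regulators of interferon tau transcription, *DLX3* alone was called, where 10.1% of all genes were. *DLX3*, a homeobox factor of the trophectoderm, had 42.7, 19.3, 83.5, 75.4 and 42.5 in WT and 148, 141, 170, 91.2 and 197 in *SOX2* KO embryos. The groups did not overlap (log2 fold change 1.61, SE 0.31, limma adjusted p = 0.00283), and the call was kept whichever embryo was left out. *ETS2*, an activator of interferon tau promoters, had 30.3 ± 9.36 and 31.9 ± 14.0 (limma adjusted p = 0.989). *POU5F1*, which encodes OCT4 and restrains activation by *ETS2*, was lower in every *SOX2* KO embryo, 533 to 823 against 998 to 1481 in WT (log2 fold change -0.75, limma adjusted p = 0.00631), without reaching the fold threshold. *TFAP2C*, at -0.49, likewise passed the test on p alone (adjusted p = 0.0352). *GATA3* had 695 ± 142 and 759 ± 134 (limma adjusted p = 0.617).

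Marker lists of the cells a blastocyst holds, and of cells it should not hold, were counted in the same fit, which called 8.93% of all genes higher and 1.16% lower. Of 18 trophectoderm markers, *ELF3*, *KRT19* and *SFN* were called higher and *KRT7* lower, and the sum of all 18 lay between 28468 and 42314 across WT and between 40322 and 54230 across *SOX2* KO embryos. The trophectoderm sums overlapped. Of 14 epiblast markers 6 were called lower, with sums of 3382 to 4232 and 2042 to 2583. Of 12 hypoblast markers 3 were called lower and 1 higher, with sums of 1963 to 2529 and 2442 to 2785. The hypoblast sums also overlapped, whereas the epiblast sums did not. Leukocyte genes were few in reads, with sums between 48.8 and 89.0 across WT and between 121 and 265 across *SOX2* KO embryos. Of 14 such genes, 4 were called higher, among them *PTPRC*, which defines leukocytes and had 2 reads over all WT and 24 over all *SOX2* KO embryos. Of 9 cumulus or granulosa cell markers 0 were called by limma, DESeq2 or edgeR, where 10.1%, 10.3% and 9.9% of all genes were. An unadjusted limma p under 0.05 was found for 1 of the 9, beside 32.4% of all genes. The part of these differences in the values of the interferon genes was not tested.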

How the data were processed

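Smart-seq2 libraries of 10 single blastocysts were analysed. Per the labels and the study's methods, reads were trimmed with Trimmomatic, aligned by HISAT2 (ARS-UCD1.2) and assigned to genes by featureCounts. Annotation, strand and the treatment of multiply mapped reads are not given in the sources used here. What the authors deposited is a normalized signal: reads per gene over the size factor that DESeq2 gave each library. Dividing by the step of each column gave whole reads for 100% of 201120 values (tolerance 0.01). The table lists no gene with under 11 reads in all. Smart-seq2 reads carry no molecular identifiers, so read numbers overstate the precision.

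limma 3.58.1 (lmFit, eBayes with trend) was run in R 4.3.3 on log2(normalized read count + 1), over genes with a mean of at least 1, on all 10 embryos without covariates. DESeq2 1.42.0 and edgeR 4.0.16 on recovered reads were alternatives, with other pseudocounts, filters, scalings, covariates and each embryo left out. Correlations were tested with 100000 permutations (scipy 1.17.1), two-sided. Scripts were tested on simulated data. Counting intervals are exact binomial intervals at 95%.

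The members and lists were chosen with earlier results of these data known. Named were all members, ligands with reads, in each pathway list every called gene and the 2 highest by mean, in marker lists called genes and markers of the cell type, and the 5 genes most like *IFNT2*. *IL10RB*, *IRF1*, *PIAS1*, *TFAP2C*, *ETS2* and the genes most like *IFNT3* were named after their values were seen. The ligand pattern was narrowed to leave out receptors and widened to *IFN-TAU* and *IFN-tau-c1*, and alias symbols were counted once. An item of the lists is not reported here and was left out of their counts. RefSeq (ARS-UCD2.0) matched 9 of 9 members and was used for names and gene order only.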

Additional observations from a re-analysis of the deposited data

Results flagged for a closer look

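In 8 of 86 groups of 5 embryos over the 43 genes examined, 1 embryo stood apart from the other 4 by Dixon's criterion on the log2 scale. The nominal rate of the criterion gives about 4.3. That rate need not hold near the floor, where 4 embryos at 0 meet the criterion whenever the remaining embryo has any read. No conclusion is drawn from 8 against 4.3. In the interferon set the flagged groups were *IFNT2* in WT embryo nc5 (9.44 normalized read counts against 0.994 to 1.55 in the others), *STAT2* in WT embryo nc1 (56.5 against 37.1 to 41.8) and *IFI6* in *SOX2* KO embryo ko1 (2.23, from 2 reads, against 0). In the wider pathway they were *IFNGR1* in nc3 (17.9 against 38.9 to 43.0), *PTPN11* in nc4 (636 against 450 to 472), *OASL* in nc3 (1.99, from 2 reads, against 0), *IRF3* in ko4 (87.9 against 144 to 174) and *TAP1* in ko2 (166 against 131 to 139). Among genes taken up after their values were seen, 4 more groups met the criterion: *OAS1Y*, *OAS1Z* and *USP18* in nc4 (9.32, 10.1 and 4.66) and *USP18* in ko4 (0, from 0 reads, against 3.46 to 6.98).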

How the results depend on the processing

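The number of members called was 0 with other pseudocounts, filters, covariates, count tests and equal totals, 1 after quantile normalization (*IFN-TAU*, lower, at most 3 reads an embryo) and 0 to 2 when an embryo was left out, the 2 being *IFNT2* and *MX1* without ko4. For *IFNT2* the log2 fold change ran from 0.61 to 1.89 without 1 embryo, the latter, without ko4, past the thresholds. Pathway calls were 3 with the share of *RN18S1* as a covariate and 7 to 23 without 1 embryo. Without nc2, which gave the 7, all genes held 1051 calls higher and 179 lower. Without ko4, which gave the 23, they held 3050 and 266. Over all genes, calls numbered 137 higher and 83 lower with that covariate and 502 and 190 at a mean of at least 10, against 1792 and 232. Quantile normalization moved the median of all genes from 0.25 to -0.02 and the share of higher calls from 88.5% to 58.5%. Signs were reversed for *IFNT3* (-0.03), *GATA3* (-0.16), *IRF3* (-0.37), *ETS2* (-0.21) and *IFN-tau-c1* (-0.27) with the *RN18S1* covariate, *IRF3* (-0.02) and *ETS2* (-0.03) with *XIST* as a covariate, *IRF3* (-0.04), *ETS2* (-0.04) and *IFN-tau-c1* (-0.29) in edgeR, *IFN-tau-c1* (-0.16) in DESeq2, and *IFNAR1* (-0.08), *ISG15* (-0.35), *ETS2* (-0.06) and *IFN-tau-c1* (-0.70) after quantile normalization. Without 1 embryo the values ran from -0.05 to 1.01 for *ISG15*, -0.26 to 0.66 for *IFN-tau-c1*, -0.12 to 0.26 for *IRF3*, -0.27 to 0.01 for *B2M* and -0.16 to 0.19 for *ETS2*. The cause was not tested. No paired analysis was possible because ko1 to ko5 do not carry the replicate numbers of their labels. *IFN-TAU*, *MX2*, *ISG15* and *IFI6* had few reads, which limits the precision of their values.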

Other observations

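WT embryo nc4 held the most reads among WT embryos for several interferon-stimulated genes. These genes were chosen after their values were seen. It had 33 reads of *MX1*, 20 of *IFI6*, 17 of *IFI27*, 16 of *ISG15*, 13 of *OAS1Z*, 12 of *OAS1Y*, 9 of *IFI44L* and 6 of *USP18*. *OAS1Y* and *OAS1Z*, which encode synthetases of oligoadenylate, had 0 reads in each of the other 4 WT embryos, and *USP18*, an inhibitor of the receptor signal, 0 to 1. In *SOX2* KO embryos *OAS1Y* had 0 to 3 reads, *OAS1Z* 0 to 6 and *USP18* 0 to 6. Embryo nc4 had 170.9 normalized read counts of *IFNT3*, second to nc5 in WT. Of all 68 interferon-stimulated genes, nc4 held the highest WT value for 20 and nc3 for 25. The number of the 68 genes above 3 reads lay between 38 and 53 across WT and between 45 and 62 across *SOX2* KO embryos, at the depths given.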
